A study of Macaca mulatta with 6 samples.

Results

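The 8 interferon-induced genes IFIT1, IFIT2, IFIT3, IFI44, IFI44L, IFI6, ISG15 and MX1 were followed together with TNFSF10, 9 genes of the 11963 that had a probe set naming a single gene. Every probe set whose platform annotation names one of them was taken, which gave 12: 3 for TNFSF10, 2 for IFI44 and 1 for each of the other 7 genes. The genes were selected with their values on these arrays known, and TNFSF10 had been among the genes with the smallest p in the comparison of day and night arrays, so the levels of all 9 are given as a description without a test.

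Interferons are cytokines that cells release on sensing viral nucleic acid, and they act on neighbouring cells through paired surface receptors, Janus kinases and a complex of STAT proteins with IRF9. That complex switches on interferon-stimulated genes, whose products bind foreign RNA, block viral replication or tag other proteins. TNFSF10, the death ligand TRAIL, is itself induced by interferon in many cell types and triggers apoptosis through death receptors and caspase 8. In tissue without infection these genes are generally transcribed at a basal level, and the adrenal gland holds resident immune cells beside its steroid-making cortex and its chromaffin cells.

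The left adrenal gland came from 6 female rhesus macaques, all ovariectomized, all kept on 12 h light and 12 h darkness and all killed after 12 h without food. One animal and 1 array stood for each clock time. The animals of 3 AM and 7 AM were 12 years old, and those of 11 AM, 3 PM, 7 PM and 11 PM were 10 years and 37 days, 8 years and 106 days, 7 years and 82 days, and 8 years and 70 days old. Clock time, age and the individual animal therefore cannot be told apart, and no clock time has a spread of its own. RNA was hybridised to an Affymetrix human expression array, whose probes may bind a diverged macaque sequence less well, so signals of different probe sets are not read as relative transcript levels. The arrays named here as day arrays are those of 7 AM, 11 AM and 3 PM, and the night arrays those of 7 PM, 11 PM and 3 AM, a split by clock hour alone because the time of lights-on was not given in the sources used here. In a whole gland, fewer cells of a type and less RNA per cell cannot be told apart.

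The arrays were alike, with correlations over all probe sets from 0.916 to 0.928. All 7 of the cortex markers and all 7 of the medulla markers with a probe set lay above the median level of all probe sets. Over the 18 hybridisation control probe sets, for transcripts added in fixed amounts, the arrays of 3 AM and 3 PM had low geometric means of 544.5 and 671.7, and the other 4 had 950.6 to 1103.

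The members fell into a brighter and a fainter group. Of the 12 probe sets, 7 reached a mean log2(value + 1) of 7.30, the median over all probe sets once controls were left out: those of IFIT1, IFIT2, IFIT3 and MX1, 1 of IFI44 and 2 of TNFSF10. The other 5, for IFI44L, IFI6, ISG15, the second of IFI44 and the third of TNFSF10, lay between percentile 7.81 and percentile 22.5 of all probe sets by level. IFI6, IFI44L and ISG15 were thus represented by faint signal alone, and 6 of the 9 genes entered the tests across genes.

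The IFIT genes encode tetratricopeptide-repeat proteins that recognise foreign RNA and restrain its translation. IFIT2 and IFIT3 are direct neighbours among coding genes in the RefSeq annotation of the macaque assembly T2T-MMU8v2.0, and IFIT1 lies in the same run between IFIT1B and IFIT5. IFIT1 (probe set 203153_at), which binds the cap of RNAs lacking the host's methyl marks, had intensities of 644.5 at 3 AM, 622.4 at 7 AM, 403.9 at 11 AM, 874.6 at 3 PM, 624.7 at 7 PM and 394.9 at 11 PM. The mean was 594.2 ± 178.2 (SD over 6 arrays). Its highest array was that of 3 PM, its low arrays those of 11 AM and 11 PM, and the remaining 3 differed by little.

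IFIT2 (217502_at), a partner of IFIT3 that has also been linked to apoptosis, had intensities of 426.2 at 3 AM, 714.8 at 7 AM, 308.3 at 11 AM, 434.3 at 3 PM, 577.3 at 7 PM and 561.2 at 11 PM (mean 503.7 ± 143.0, SD over 6 arrays). IFIT3 (204747_at), which stabilises IFIT1 on RNA, had 256.8 at 3 AM, 376.5 at 7 AM, 235.4 at 11 AM, 366.0 at 3 PM, 319.9 at 7 PM and 321.1 at 11 PM (mean 312.6 ± 56.8, SD over 6 arrays). Both were highest at 7 AM and lowest at 11 AM, and 3 AM was below the mean in both. The 3 PM array lay close to 3 AM in IFIT2 but was the second highest in IFIT3. Their correlation over the 6 arrays was 0.78, the highest between any 2 members, and it shares the arrays and their scaling.

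Highest over lowest, on the log2(value + 1) scale, the ratio was 2.21 for IFIT1, 2.31 for IFIT2 and 1.60 for IFIT3. The day and night arrays overlapped in all 3 genes. IFIT1 averaged 9.24 on the log2 scale in day arrays and 9.08 in night arrays (day minus night 0.16 ± 0.36, SE of the fit), IFIT2 8.84 in day and 9.02 in night arrays (-0.18 ± 0.35), and IFIT3 8.32 in day and 8.22 in night arrays (0.10 ± 0.27). None of these differences exceeded its standard error. The sign turned for IFIT1 without the 3 PM (-0.11) or the 11 PM array (-0.07), for IFIT2 without the 11 AM array (0.11), and for IFIT3 without the 3 AM (-0.01) or the 7 AM array (-0.02) or without both arrays of low hybridisation controls (-0.11).

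**Figure D1:**
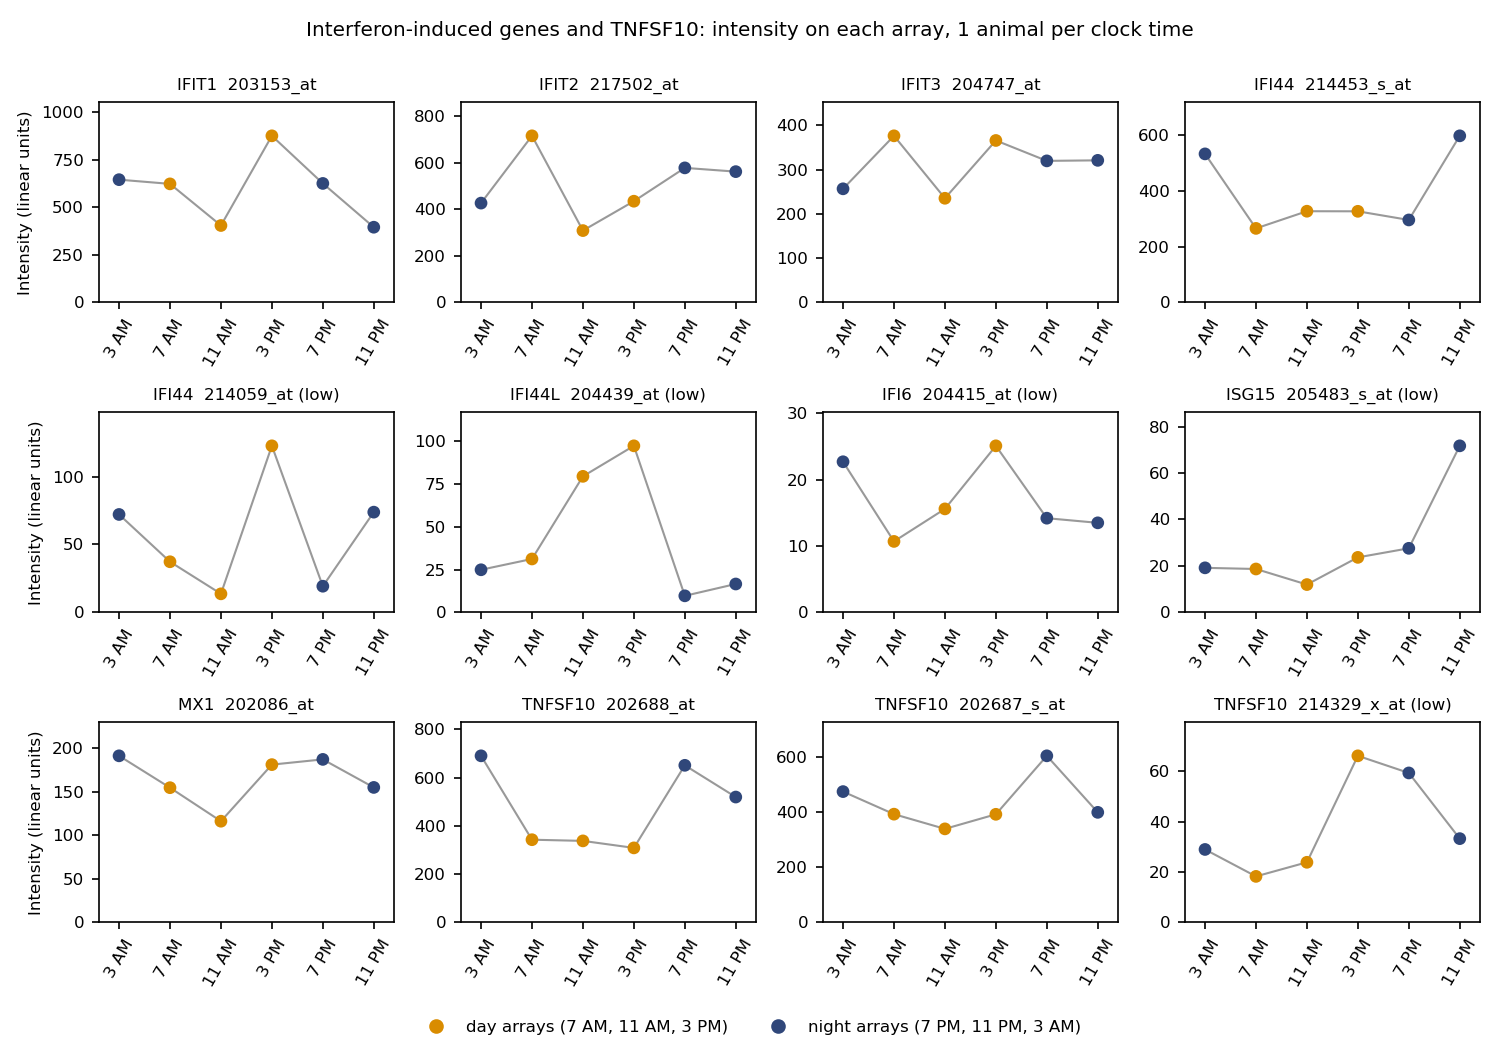
Intensity of each of the 12 probe sets (linear units, each vertical axis from 0) against the clock time of the array; each point is 1 animal, orange for day arrays and blue for night arrays, and "low" marks a probe set below the median level. IFIT1 is highest at 3 PM (874.6), IFIT2 at 7 AM (714.8), and the brightest TNFSF10 probe set shows 3 low day arrays and 3 higher night arrays.

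IFI44 and IFI44L are paralogous cytoplasmic proteins with reported antiviral activity, and direct neighbours in the macaque annotation. The brighter IFI44 probe set, 214453_s_at, had intensities of 531.2 at 3 AM, 264.8 at 7 AM, 326.2 at 11 AM, 325.9 at 3 PM, 295.0 at 7 PM and 595.8 at 11 PM (mean 389.8 ± 138.0, SD over 6 arrays). The 11 PM and 3 AM arrays lay well above the other 4, which stayed within a narrow band. The 7 PM array sat in that low band, so day and night arrays overlapped, with means of 8.25 in day and 8.83 in night arrays on the log2 scale (day minus night -0.58 ± 0.32, SE). The difference was -0.89 without the 7 PM array and -0.38 without the 11 PM array.

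The fainter IFI44 probe set, 214059_at, shared the 3 AM and 11 PM highs, at 72.1 and 73.8, but was highest at 3 PM with 122.6. It had 37.3 at 7 AM, 13.7 at 11 AM and 19.3 at 7 PM, so its range of 3.07 on the log2 scale far exceeded the 1.17 of the brighter one. Its day and night arrays overlapped too (day minus night -0.23 ± 0.87, SE), with a positive difference without 3 AM (0.08), 11 AM (0.52) or 11 PM (0.10) and one of -1.02 without 3 PM. The correlation between these probe sets was 0.48 over 6 arrays (Spearman 0.31), and they placed the highest array differently.

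IFI44L (204439_at) had its highest levels by day. Its intensities were 24.9 at 3 AM, 31.2 at 7 AM, 79.4 at 11 AM, 97.2 at 3 PM, 9.7 at 7 PM and 16.6 at 11 PM, the widest range of the 12 probe sets at 3.20 on the log2 scale. Every day array lay above every night array, with means of 5.99 by day and 4.08 by night (day minus night 1.90 ± 0.52, SE). Such separation in this direction was found in 5.54% of all 22215 probe sets, and signal of this faintness varied widely in general: 91.9% of the probe sets below the median level had a narrower range than IFI44L. The correlation between IFI44L and the brightest TNFSF10 probe set was -0.83 over 6 arrays, the lowest among the members.

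ISG15 (205483_s_at), a ubiquitin-like protein conjugated to other proteins during an interferon response, had 1 high array. Its intensities were 19.2 at 3 AM, 18.7 at 7 AM, 12.0 at 11 AM, 23.7 at 3 PM, 27.6 at 7 PM and 71.7 at 11 PM. The gap between 11 PM and the next array made up 54.2% of its log2 range, the largest such share of the 12. Day arrays averaged 4.21 and night arrays 5.12 on the log2 scale (day minus night -0.91 ± 0.52, SE), a difference of -0.38 without the 11 PM array and -1.51 without both the 3 AM and 3 PM arrays, and the 3 PM array overlapped the night arrays.

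IFI6 (204415_at), a small membrane protein that counters apoptosis and viral replication, had 22.7 at 3 AM, 10.7 at 7 AM, 15.6 at 11 AM, 25.1 at 3 PM, 14.2 at 7 PM and 13.5 at 11 PM. Its highest arrays were 3 PM and 3 AM, the same pair in which the hybridisation controls were low; their part in this pattern was not tested. Day arrays averaged 4.10 and night arrays 4.12 (day minus night -0.01 ± 0.37, SE), and the sign turned without the 3 AM (0.21), 7 AM (0.26) or 11 AM array (0.01) and at a pseudocount of 16 (0.003).

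MX1 (202086_at), a dynamin-like GTPase that traps viral components, varied little. It had 191.4 at 3 AM, 154.8 at 7 AM, 116.3 at 11 AM, 181.3 at 3 PM, 187.3 at 7 PM and 155.1 at 11 PM (mean 164.4 ± 28.4, SD over 6 arrays). Only the 11 AM array stood clearly below the rest, and the 3 highest arrays lay close together. Day arrays averaged 7.22 and night arrays 7.48 on the log2 scale (day minus night -0.25 ± 0.25, SE), with overlap. The difference was -0.08 without the 11 AM array and -0.40 without the 3 PM array.

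TNFSF10 was measured by 3 probe sets, and its 2 bright ones were both lower by day. The brightest, 202688_at, had intensities of 690.1 at 3 AM, 342.7 at 7 AM, 337.8 at 11 AM, 308.8 at 3 PM, 650.8 at 7 PM and 519.4 at 11 PM (mean 474.9 ± 169.2, SD over 6 arrays). The 3 day arrays were nearly level and all lay below the night arrays, with means of 8.37 in day and 9.27 in night arrays on the log2 scale (day minus night -0.90 ± 0.22, SE, or 1.87-fold). Over the 10 alternatives run for members this difference stayed between -1.02 and -0.77. Age as a covariate was not among them. With every day array below every night array, leaving out arrays could not turn the sign. TNFSF10 was also chosen from this comparison, so nothing is read from the steadiness of the difference.

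The second, 202687_s_at, had 475.3 at 3 AM, 393.3 at 7 AM, 339.9 at 11 AM, 392.8 at 3 PM, 605.2 at 7 PM and 399.9 at 11 PM. Here too no day array reached a night array, but 7 AM, 3 PM and 11 PM were nearly level, and the lead of the 7 PM array over the next made up 41.9% of the range. Day arrays averaged 8.55 and night arrays 8.93 (day minus night -0.38 ± 0.24, SE), a difference of -0.22 without the 7 PM array. The 2 probe sets correlated at 0.79 over 6 arrays (Spearman 0.89).

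The third and faint TNFSF10 probe set, 214329_x_at, had 29.0 at 3 AM, 18.3 at 7 AM, 23.9 at 11 AM, 66.2 at 3 PM, 59.4 at 7 PM and 33.3 at 11 PM. It went against the other 2 at 3 PM, where it was highest and the brightest one lowest, and correlated with that one at 0.17 (Spearman -0.09). The x in its name marks a probe set that may also pick up other transcripts. Day arrays averaged 4.99 and night arrays 5.31 (day minus night -0.32 ± 0.53, SE), with a difference of 0.05 without the 7 AM array, -0.01 without 7 PM and -0.85 without 3 PM.

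Among the 12 probe sets, complete separation with every day array lower was seen in 2, both of TNFSF10, where 4.77% of all probe sets showed it. Of the 6 member genes tested, 1, TNFSF10, passed an unadjusted p of 0.05 in the day and night comparison in the direction lower by day, as did 2.44% of the 7164 genes tested (5.39% in both directions). It was also the 1 that passed in the fit of a 24-h cosine, against 5.56% of genes. TNFSF10 was chosen from this comparison, so nothing is read from these counts. After Benjamini-Hochberg adjustment 0 members passed in either limma fit, and 0 genes of any kind did (0% in both).

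**Figure D2:**
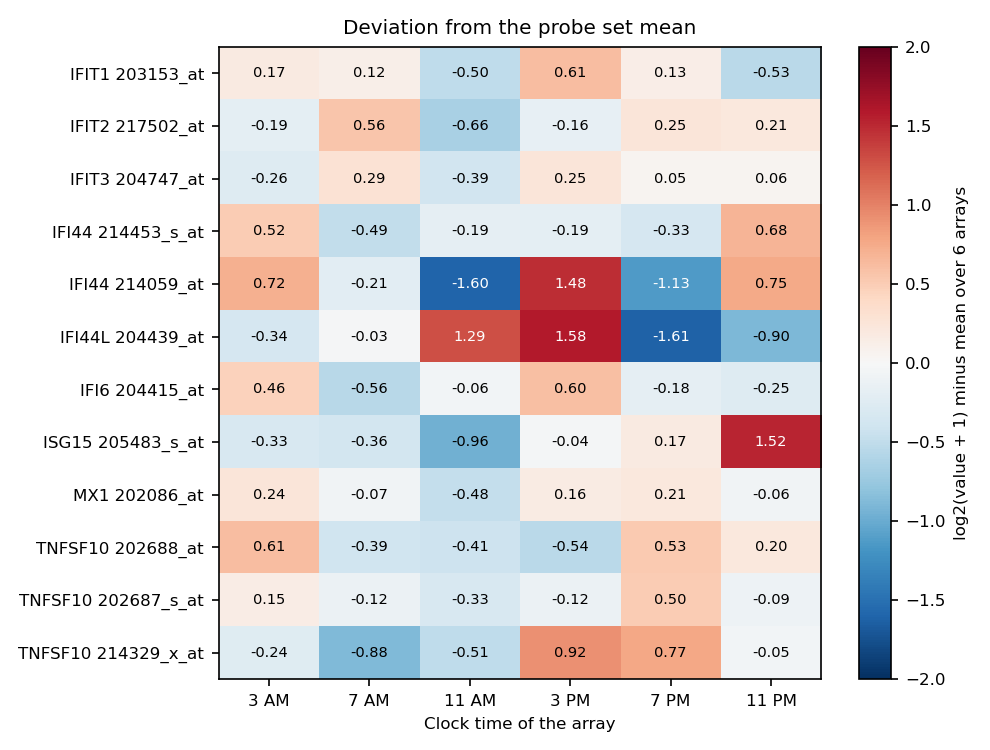
Deviation of log2(value + 1) from each probe set's mean over the 6 arrays (colour and printed value), with probe sets as rows and clock times as columns. At 11 AM 11 of the 12 probe sets lie below their mean, IFI44L being the exception, while the other columns are mixed.

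As a group the members did not run in parallel. With 1 probe set a gene, the 36 pairwise correlations over the 6 arrays had a median of 0.19, from -0.83 to 0.78, and 21 were positive. Among the 6 genes past the level filter the median was 0.20 over 15 pairs. The highest array was 3 PM for 5 probe sets, 3 AM, 7 AM and 11 PM for 2 each, and 7 PM for 1. Of all probe sets, 22.5% were also highest at 3 PM, the largest share, and 14% to 17.6% on each other array.

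The array on which most members were low was that of 11 AM, where 1 of 12 probe sets exceeded its own mean, against 53.9% of all probe sets. It was the lowest array for 6 of the 12 and for 13.3% of all probe sets: IFIT2, IFIT3, the fainter IFI44, ISG15, MX1 and 202687_s_at of TNFSF10. The median deviation of the 12 was -0.45 at 11 AM, -0.17 at 7 AM, 0.16 at 3 AM, 0.20 at 3 PM, 0.15 at 7 PM and 0.01 at 11 PM. Under quantile normalization 11 AM stayed the lowest array for 6, and with arrays centred on the median for 7. Since 1 animal gave the 11 AM array, the clock time and that animal cannot be told apart.

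Of the 27 other interferon-stimulated genes tested, 12 (44.4%) lay above their own mean at 11 AM, against 52.6% of all genes tested. Their median deviation there was -0.01. Their lowest array was 7 AM, where 8 of 27 (29.6%) lay above their mean (median deviation -0.15), and at 7 PM 17 (63%) did (0.15). Over all genes tested 7 AM was also the lowest array, with 47.5% above their mean, and 54.1% were above it at 7 PM. The other lists described below varied at 11 AM. Of 16 interferon-gamma-induced and antigen presentation genes 37.5% lay above their mean (median deviation -0.23, their lowest array), and of 10 signalling genes 30%. In the lists of ligands, sensors, TRAIL signalling and other TNF ligands, with 3 to 5 genes each, 60% to 75% did. Over all 80 listed genes 11 AM was lowest for 23.8%, against 12.8% of all genes tested. The difference between the listed genes and the members was not tested, because the members were chosen with their values known.

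**Figure D3:**
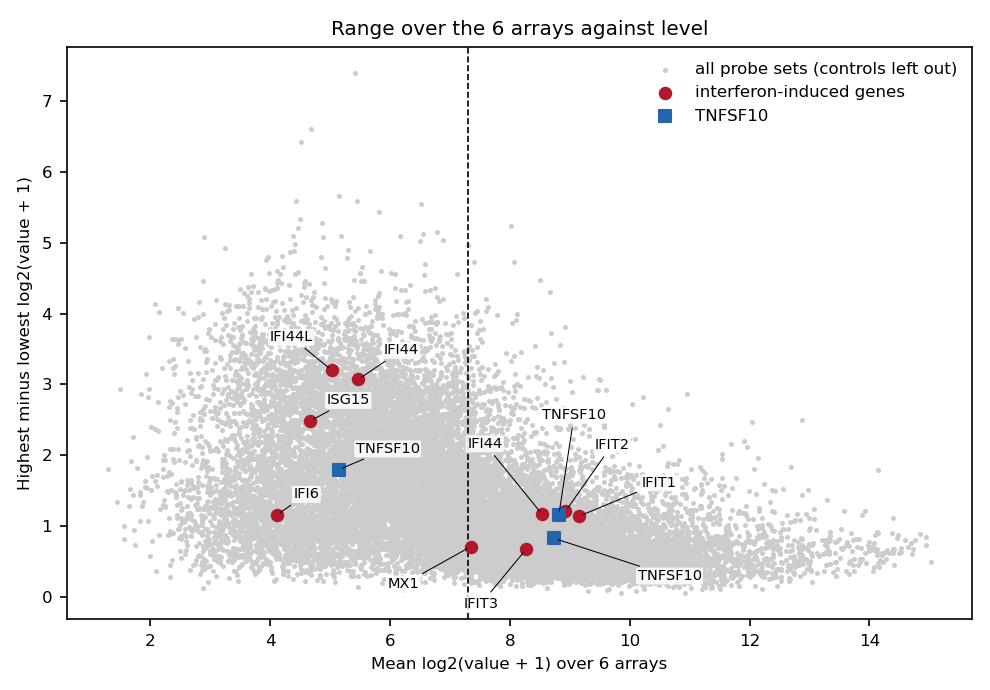
Highest minus lowest log2(value + 1) over the 6 arrays against the mean level, for all 22215 probe sets (grey), the interferon-induced genes (red circles) and TNFSF10 (blue squares); the dashed line is the level filter of 7.30. Below the line ranges are wide for all probe sets, and the members there, from 1.16 for IFI6 to 3.20 for IFI44L, lie inside that cloud.

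Among the probe sets past the level filter, the 7 of the members had a median range of 1.15, against 0.77 for all 11108 such probe sets. IFIT1, IFIT2, the brighter IFI44 and the brightest TNFSF10 had a range wider than 79.3% to 82.1% of them, whereas MX1 and IFIT3 exceeded 43.2% and 38.5%. With no second animal at any clock time, the moderated residual SD around the cosine was used as a yardstick for the order of levels. Of the 5 steps between neighbouring levels, 1 exceeded it in each of IFIT1, IFIT2, the brighter IFI44, IFI6, MX1 and both bright TNFSF10 probe sets. For IFIT3 and the fainter IFI44 0 steps did, and for IFI44L, ISG15 and the faint TNFSF10 probe set 2 steps did. The step of IFIT1 lay low in the order, from 7 AM to 11 AM (0.623), and that of IFIT2 from 3 AM to 11 AM (0.466). Their highest arrays led the next by 0.440 and 0.308, less than their residual SDs of 0.474 and 0.439. Most neighbours in the order therefore did not differ beyond this spread.

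The fitted 24-h curves followed the values of the members to differing degrees. For the brightest TNFSF10 probe set the peak fell at 23.5 h with a log2 peak-to-trough difference of 1.12 ± 0.42 (SE), and the curve took up 70.5% of the variation between arrays. The other TNFSF10 probe sets peaked earlier: 202687_s_at at 21.4 h (0.50 ± 0.37, 43.9%) and the faint 214329_x_at at 18.1 h (1.69 ± 0.42), where the curve took up 84.5%, the highest share of the 12. For the brighter IFI44 these were 0.34 h, 0.92 ± 0.45 and 55.5%, and for ISG15 22.0 h, 1.80 ± 0.58 and 69.4%. For IFIT1, IFIT3 and IFI6 the curve took up 7.25%, 5.63% and 7.01%, with differences of 0.31 ± 0.55, 0.17 ± 0.41 and 0.30 ± 0.55 on the log2 scale, none larger than its SE. IFI44L peaked at 11.3 h (2.64 ± 0.83, 67.7%).

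Genes that make, receive and carry the interferon signal, and those of the TRAIL death pathway, were examined as 9 lists of 158 genes, members left out, of which 132 had a single-gene probe set and 80 were tested. By limma 0 of the 80 passed after adjustment in either fit, the lowest adjusted p being 0.836 for the cosine and 0.809 for day against night. Without moderation of the variance the count was also 0. At an unadjusted p of 0.05, 7 passed the cosine fit (8.75%, against 5.56% of all genes tested). In the day and night comparison 0 were higher by day (2.95% of all genes tested) and 3 were lower by day (3.75%, against 2.44%). The median day minus night difference was -0.03 over the 80 and -0.004 over all genes tested. Of the 80, 48 were lower and 32 higher by day. The share of all genes lower by day was not counted, so nothing is read from counts of signs within the lists.

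**Figure D4:**
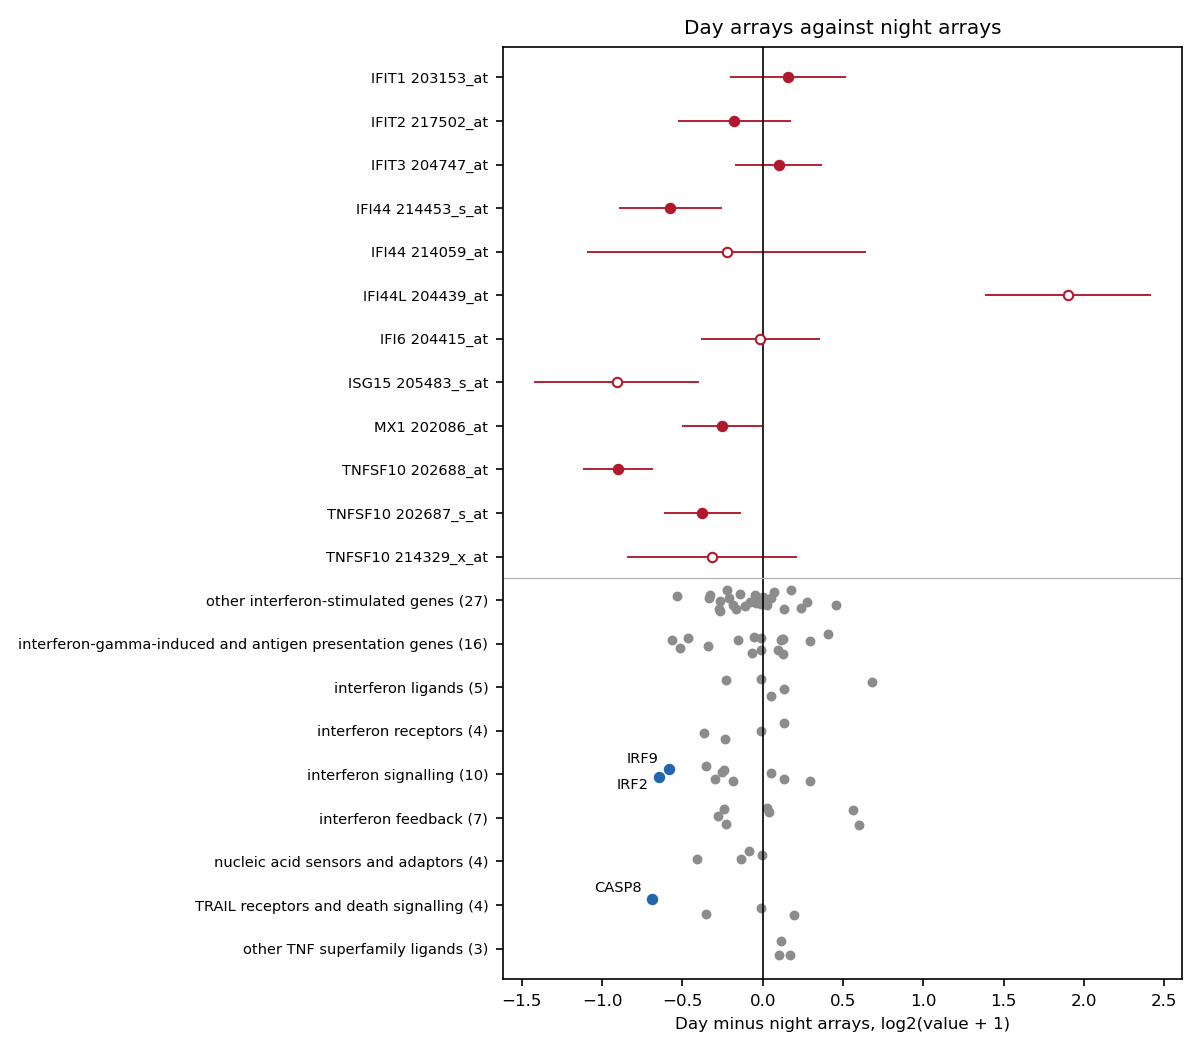
Day minus night difference on the log2(value + 1) scale: for each member probe set with its standard error (red, open where the probe set is below the level filter) and for each tested gene of the 9 lists (grey; blue with a name where the unadjusted p is under 0.05; vertical scatter within a list has no meaning). IRF9, IRF2 and CASP8 are the 3 blue points, all lower by day.

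Downstream of the receptors, IRF9, the DNA-binding subunit of the STAT complex, had intensities of 943.0 at 3 AM, 564.1 at 7 AM, 487.1 at 11 AM, 649.1 at 3 PM, 690.9 at 7 PM and 919.4 at 11 PM. No day array reached a night array. Among the 80 listed genes tested this held for 7 (8.75%), against 4.77% of all probe sets, and the opposite separation for 2, PARP12 and IRF5 (2.50%, against 5.54%), which were named after their values were seen. The day minus night difference of IRF9 was -0.58 ± 0.21 (SE; unadjusted p = 0.0228, limma adjusted p = 0.809), and leaving out the 3 AM, 11 AM or 11 PM array gave an unadjusted p of 0.0698 to 0.0878. Its fitted peak fell at 23.6 h, 1.86 times the trough (unadjusted p = 0.0413, limma adjusted p = 0.836), which missed the threshold when any 1 array other than 3 PM or 7 PM was left out.

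IRF2, a factor that competes with the activator IRF1 on interferon response elements, had 1163.8 at 3 AM, 1158.7 at 7 AM, 642.5 at 11 AM, 569.8 at 3 PM, 1359.2 at 7 PM and 1034.3 at 11 PM. The lows were 11 AM and 3 PM, while 7 AM was as high as the night arrays. Its difference was -0.65 ± 0.28 (SE; unadjusted p = 0.0484, limma adjusted p = 0.894), which missed the unadjusted threshold without any one of 5 arrays, 7 AM being the exception. The threshold was also missed with no level filter (unadjusted p = 0.0798), with arrays centred on their medians (0.0534), with probe sets tested singly (0.0506) and without moderation (0.126). Of the 10 signalling genes tested 7 were lower by day, with a median of -0.25.

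In the TRAIL pathway, CASP8, the initiator caspase of death receptors, had 373.5 at 3 AM, 176.4 at 7 AM, 161.0 at 11 AM, 293.8 at 3 PM, 277.7 at 7 PM and 339.5 at 11 PM. The 7 AM and 11 AM arrays were low, and 3 PM overlapped the night arrays. Day minus night it was -0.69 ± 0.26 (SE; unadjusted p = 0.0279, limma adjusted p = 0.820), past the unadjusted threshold without 3 PM or 7 PM and not without any of the other 4 arrays, nor with no level filter (unadjusted p = 0.0504) or without moderation (0.0808). Of the 4 tested genes of TRAIL receptors and death signalling 3 were lower by day, and all 3 tested ligands of the TNF superfamily other than TRAIL were higher by day. Those were small differences, such as 0.10 ± 0.31 for TNFSF8 and 0.12 ± 0.29 for TNFSF18 (SE), both ligands of TNF receptor family members on T cells.

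Among the 27 other interferon-stimulated genes, 17 were lower and 10 higher by day, with a median of -0.05, and 0 passed the unadjusted threshold. In the cosine fit 2 of 27 passed (7.41%). IFI35, which binds the NMI protein, had 145.7 at 3 AM, 178.9 at 7 AM, 201.0 at 11 AM, 301.5 at 3 PM, 240.0 at 7 PM and 174.7 at 11 PM, with a fitted peak at 15.5 h of 1.88 times the trough (unadjusted p = 0.0296, limma adjusted p = 0.836). IFI16, a DNA sensor, had 269.4 at 3 AM, 300.3 at 7 AM, 356.4 at 11 AM, 382.8 at 3 PM, 578.7 at 7 PM and 457.5 at 11 PM, with a peak at 18.7 h of 1.89 times the trough (unadjusted p = 0.0474, limma adjusted p = 0.836). IFI35 missed the unadjusted threshold when any 1 array other than 7 AM or 11 AM was left out, and IFI16 without any array other than 3 PM.

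The interferon-gamma-induced and antigen presentation genes held the smallest p of the lists. HLA-DMA, a chaperone of peptide loading, was highest at 3 AM (923.6) and lowest at 7 PM (273.2), with a fitted peak at 5.45 h of 2.85 times the trough (unadjusted p = 0.00483, limma adjusted p = 0.836). CIITA, the transactivator of class II genes, was likewise highest at 3 AM (491.3) and lowest at 7 PM (106.6), peaking at 6.06 h with 3.55 times the trough (unadjusted p = 0.0109, limma adjusted p = 0.836). Animals were oldest at 3 AM and 7 AM and youngest at 7 PM, and with age as a covariate neither passed the unadjusted threshold, nor did CIITA without the 7 PM array (unadjusted p = 0.0558). With age in the fit the peak of HLA-DMA exceeded its trough by 0.40 on the log2 scale (unadjusted p = 0.629), against 1.51 without it, whereas for CIITA this value was larger, 2.43 (unadjusted p = 0.511), against 1.83 without it. With 1 animal per clock time this fit cannot tell age from clock time, and the cause of these shifts was not tested.

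At the start of the pathway, IFNA10, an interferon alpha whose near-identical family members may share its signal, had 145.6 at 3 AM, 111.7 at 7 AM, 274.9 at 11 AM, 284.4 at 3 PM, 137.5 at 7 PM and 105.2 at 11 PM (peak at 13.2 h, 2.55 times the trough, unadjusted p = 0.0338, limma adjusted p = 0.836). It was 1 of 5 tested ligands, and missed the unadjusted threshold without the 11 AM, 3 PM or 11 PM array. No receptor gene passed either fit: IFNAR2 and IFNGR2 had day minus night differences of -0.37 ± 0.21 and -0.24 ± 0.23 (SE). Of 7 feedback genes, SOCS1, which blocks Janus kinases, peaked at 16.5 h with 2.07 times the trough (unadjusted p = 0.0395, limma adjusted p = 0.836), and missed the unadjusted threshold without the 3 AM, 7 AM or 7 PM array. The 4 tested sensors and adaptors all had negative day minus night differences, and 0 passed. MYD88, the Toll-like receptor adaptor, had -0.41 ± 0.31 (SE). The differences were below their SE for the kinase gene TBK1 (-0.13 ± 0.24), IKBKE (-0.087 ± 0.205) and TRAF3 (-0.004 ± 0.192).

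The genes with courses most like the mean standardized profile of the 8 interferon-induced members, over 6 arrays and among 7158 genes tested that are not members, were MINDY1 (Pearson r 0.99), CLNS1A (0.98), PTPN1 (0.98), PRDX2 (0.97), SOX4 (0.97), ZNF33B (0.97), MPP2 (0.96), TIMM10B (0.96), CCDC25 (0.95) and UBQLN4 (0.95). All 10 were lowest at 11 AM and highest at 3 PM, as that mean profile was, which follows from choosing them by likeness to it. PTPN1, a phosphatase that restrains Janus kinase signalling and a member of the feedback list, had 1202.7 at 3 AM, 937.8 at 7 AM, 677.8 at 11 AM, 1341.1 at 3 PM, 1023.2 at 7 PM and 1111.7 at 11 PM. With 6 points per gene, 48 of the 7158 genes exceeded an r of 0.9. The number that unrelated genes would give was not worked out, so the 10 are a description. Of the 10, 0 are among the 27 other interferon-stimulated genes. Those are few among the 7158, so nothing is read from this.

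Closest to the brightest TNFSF10 probe set were ITM2A (0.97), BCAT2 (0.97), PHC2 (0.97), PTTG1 (0.97), SQOR (0.96), COL4A1 (0.96), PSME4 (0.96), VAMP7 (0.95), C7 (0.95) and INTS15 (0.95). BCAT2, a mitochondrial aminotransferase, ranked the 6 arrays in the same order as TNFSF10, with 859.0 at 3 AM, 638.3 at 7 AM, 606.3 at 11 AM, 576.5 at 3 PM, 833.3 at 7 PM and 831.6 at 11 PM. SQOR, a mitochondrial sulphide oxidoreductase, had the widest range of these 10, 2.01 on the log2 scale. An r over 0.9 was reached by 40 of the 7158 genes compared, again with no number for unrelated genes to set beside it.

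**Figure D5:**
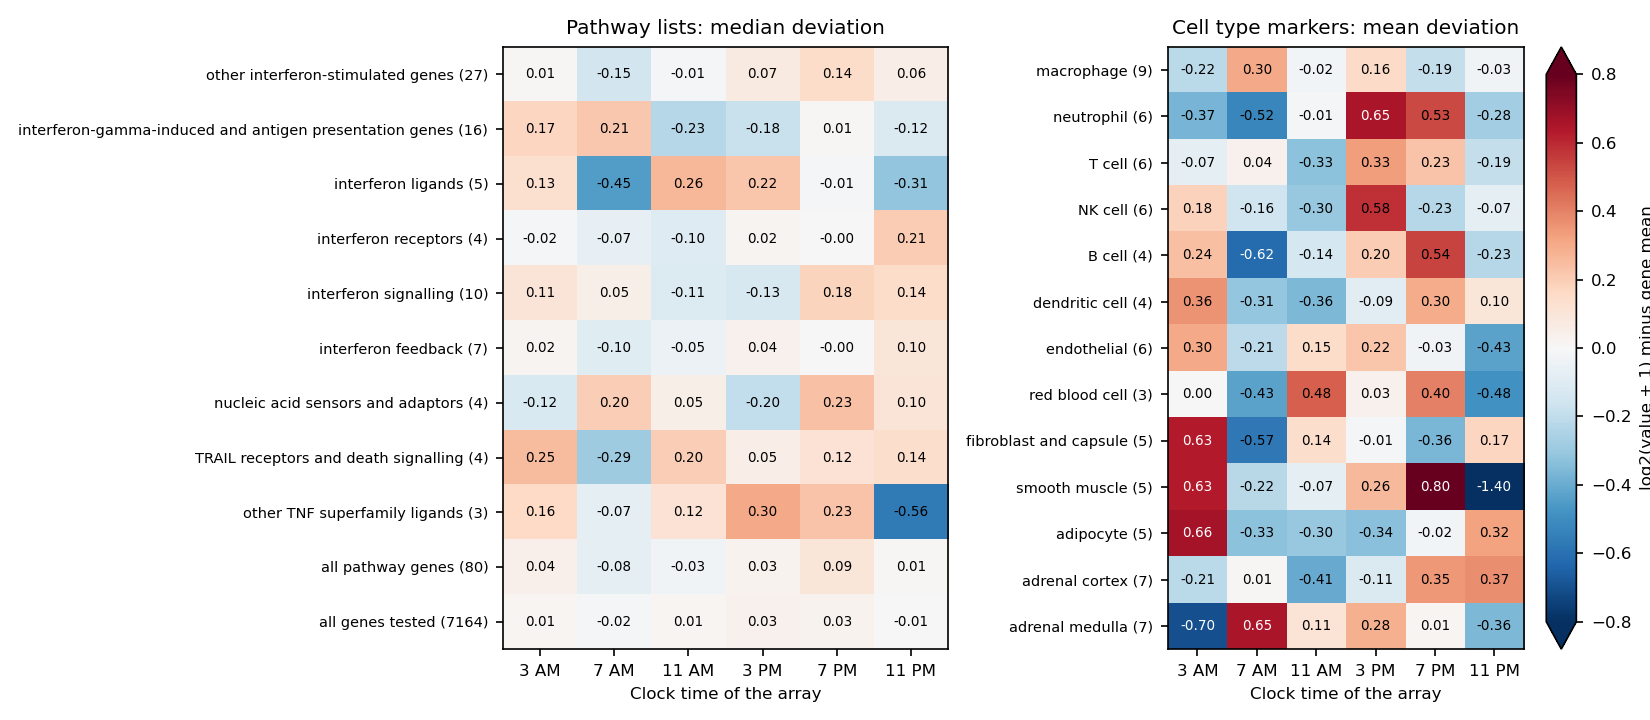
Median deviation of each pathway list (left) and mean deviation of each cell type marker list (right) from the genes' own means on the log2(value + 1) scale, by clock time, with the number of genes in brackets. The 27 other interferon-stimulated genes stay between -0.15 and 0.15, and smooth muscle markers at 11 PM (-1.40) fall beyond the colour scale.

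Markers of immune and other cells moved between arrays as well, and their part in the members' levels was not tested. At 11 AM, the low array of many members, the mean deviation of 4 lists was at its lowest of the 6 arrays. It was -0.33 for T cell markers (4 of 6 above their own mean), -0.30 for NK cell markers (1 of 6 above), -0.36 for dendritic cell markers (2 of 4 above) and -0.41 for adrenal cortex markers (2 of 7 above). Summed intensity at 11 AM was the lowest of the 6 arrays for dendritic cell markers (132.9) but not for T cell markers (908.1, against 807.6 at 11 PM), NK cell markers (515.9, against 424.2 at 7 PM) or cortex markers (62120, against 54380 at 3 AM). Macrophage markers lay at -0.02 (6 of 9 above). At 3 PM, where IFIT1 was highest, the mean deviations of neutrophil (0.65), NK cell (0.58) and T cell markers (0.33) were at their highest. That array was also the highest for 22.5% of all probe sets.

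Beside the day and night difference of TNFSF10, 2 of the marker lists examined had a lower mean deviation on every day array than on any night array. Single probe sets separated in this direction in 4.77% of all. Dendritic cell markers summed to 132.9 to 277.1 on day arrays and 283.4 to 396.1 on night arrays, with 1 of 4 past the level filter, and adipocyte markers summed to 1287 to 2115 on day arrays and 1983 to 3716 on night arrays, with 2 of 5 past it. Macrophage markers ran the other way in their mean deviation, with sums of 1900 to 2355 on day arrays and 1608 to 2040 on night arrays, as did medulla markers, with 21390 to 35190 on day arrays and 13880 to 21460 on night arrays. No marker was at 0 on any array. The markers within a list did not all move together. Of the dendritic cell markers 2 of 4 lay above their own mean on each day array and 3 of 4 on each night array. Of 5 adipocyte markers 1 did at 7 AM, 3 PM and 7 PM, 2 at 11 AM, 3 at 11 PM and 5 at 3 AM. How often lists separate by chance was not worked out, and a link to TNFSF10 was not tested.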

How the data were processed

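The deposited values are linear intensities, judged by their span of 0.1 to 40394, with a single value for each probe set on each array. They had been scaled before deposit, since trimmed means that drop 2% of values at both ends lay between 325.04 and 325.09. The summary software was not given in the sources used here. Of 22283 probe sets 68 are controls, 19065 name 1 gene, 1043 several and 2107 none. The members and lists were chosen with earlier results of these data known.

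Values were converted to log2(value + 1). Differences and standard errors of members come from limma 3.58.1 (R 4.3.3) fitted to all 22215 probe sets without a filter on level. Tests ran on 7164 genes, each on its brightest single-gene probe set with a mean at or above 7.30: a 24-h cosine (moderated F test, 3 residual degrees of freedom) and day against night arrays (3 against 3, 4 residual degrees of freedom), adjusted by Benjamini-Hochberg across the genes tested, at 0.05. P-values rest on the residual spread between arrays, in which animal, age, array and remaining differences between clock times are mixed. They do not measure the spread between animals at 1 clock time. The scripts were tested on simulated data.

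Named are all member probe sets, in each list the genes past an unadjusted p of 0.05 in either fit (otherwise the 2 with the smallest cosine p), and the 10 genes most like the interferon profile and TNFSF10; others were chosen after their values were seen. Alternatives were another pseudocount (16), no or a stricter filter, quantile normalization, arrays centred on their medians, probe sets tested singly, no moderation, age as a covariate and each array left out. For members only the pseudocount, quantile normalization, median centring and left-out arrays were run. The number of arrays limits the precision. Sequences were not used here.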

Additional observations from a re-analysis of the deposited data

How the results depend on the processing

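The count of listed genes past an unadjusted p of 0.05 in the cosine fit, 7 of 80, was 4 of 132 with no filter on level, 3 of 33 with the stricter filter and 4 of 80 without moderation; the numbers tested differ by construction in the first pair, and otherwise the cause was not tested. Leaving out each array in turn gave 5 to 8. For day against night the count of 3 was 6 without moderation, 5 lower and 1 higher by day, and 2 to 4 without single arrays. Of these, 1 to 2 were lower by day, with 1 without 11 AM (TRIM38) and 1 without 11 PM (TAPBP). Those higher by day numbered 0 to 3, with 1 without 7 AM (IFNA10), 2 without 11 AM (PARP12 and PTPN6) and 3 without 11 PM (PTPN2, TRIM25 and PTPN6). After adjustment the counts were 0 under every alternative run. With age as a covariate the fitted peaks of IFI16 and SOCS1 moved by over 6 h, with log2 peak-to-trough differences of 0.61 and 1.13; the cause was not tested. The median day minus night difference of the 12 member probe sets, -0.24, was -0.04 without the 11 AM array and between -0.40 and -0.16 under the other alternatives run for members, which did not include age. The alternative without the 3 AM and 3 PM arrays, and those for the arrays at which members were lowest, were chosen after seeing the data. Signal over background was not given, so faint probe sets are limited by the level filter alone. No paired analysis was possible because every array is of a different animal.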

Other observations

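With no filter on level, RIGI, the cytosolic sensor of viral RNA that starts interferon production, had the smallest p of the listed genes in the day and night comparison (log2 day minus night -1.10, unadjusted p = 0.00137, limma, 3 arrays against 3), and was picked out after its values were seen. Its faint signal was 7.9 at 7 AM, 10.5 at 11 AM and 10.5 at 3 PM, against 22.2 at 7 PM, 23.4 at 11 PM and 19.4 at 3 AM, so that every day array lay below every night array. Of the 132 listed genes with a single-gene probe set 11 separated in this way (8.33%), against 4.77% of all probe sets, and 2, PARP12 and IRF5, separated with every day array higher (1.52%, against 5.54%). HERC5, the ligase that attaches ISG15 to its targets, was the other listed gene below the level filter that passed the unadjusted threshold there (log2 -0.62, unadjusted p = 0.0417, limma). Its intensities were 149.7 at 7 AM, 109.3 at 11 AM and 93.6 at 3 PM, against 177.7 at 7 PM, 157.5 at 11 PM and 198.8 at 3 AM, again without overlap. In that fit 3 of the 132 listed genes passed unadjusted, against 605 of all 11963 genes, and 0 of the 132 passed after adjustment.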
